A study of Mus musculus with 6 samples.

Results

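The macrophage and monocyte marker genes described here are Cd14, Lyz2, Itgam, Ctss, Tyrobp, Fcgr1, Chil3, Csf1r, Adgre1 and C1qa. They were taken as a named list of 10, among 31164 genes with estimated reads in at least 1 library, and the estimated reads of all transcripts of a gene were summed. The list was chosen with earlier results of these data known. Shares of all genes printed beside its counts are therefore a background only and no test of enrichment. All 10 passed the filter on low counts that left 17084 genes for testing. The question was whether these genes move together across the libraries, as they would if the share of a single admixed cell type differed. The RNA came from muscle satellite cells, the stem cells of skeletal muscle, which were sorted by flow cytometry from injured tibialis anterior and gastrocnemius muscles of adult C57BL/6 mice, 30 h after injection of cardiotoxin. There were 2 libraries each of Jmjd3 KO cells (loss of the histone demethylase gene Kdm6b), of Utx KO cells (loss of the related gene Kdm6a) and of cells labelled Tdt control. The series' title speaks of knockouts in satellite cells and of wild-type cells. The labels used here name no Cre driver and do not say what Tdt stands for, how many animals went into a library or which surface proteins the sort used. Nothing in them says that the replicates came from separate animals, so the p-values measure only the spread between these samples, which may be technical.

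Macrophages and monocytes are phagocytes that enter damaged muscle, clear dead fibres and release factors that act on satellite cells. Some of their genes are largely specific for them within the myeloid lineage, among them Csf1r, the receptor for the growth factor CSF1 on which macrophages depend, Adgre1, which encodes the F4/80 antigen, Fcgr1, the high-affinity receptor for IgG, and C1qa, a chain of the complement protein C1q. Chil3, a secreted chitinase-like protein also called Ym1, is high in classical monocytes and was put on the monocyte list, but it is not limited to them. The other 5 genes were listed as shared with neutrophils and other leukocytes. Cd14 encodes the co-receptor that passes bacterial lipopolysaccharide to TLR4, Lyz2 a lysozyme, Itgam the integrin chain CD11b, Ctss the lysosomal protease cathepsin S, and Tyrobp the adaptor DAP12, which signals through an ITAM motif.

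PU.1, the product of Spi1, is a transcription factor required for the myeloid lineage, and some of its binding sites hold the letters GAGGAA. RefSeq's table of promoters on GRCm38.p6 (250 bases before to 50 after the start of each gene) matched 5 of the 10 genes: Ctss, Itgam, Fcgr1, Chil3 and Lyz2. Not matched were Cd14, Tyrobp, Csf1r, Adgre1 and C1qa. The promoters of Ctss, Itgam and Chil3 are shown because these 3 genes were called between Jmjd3 KO and Utx KO cells also with a correction for transcript length, and because they differ in this motif. Capitals mark GAGGAA on either strand (TTCCTC where it lies on the other strand), and in Ctss the longer GAGGAAGT, which contains it. The windows are chr3:95526536-95526835 on the plus strand for Ctss, chr7:128062390-128062689 on the plus strand for Itgam and chr3:106167515-106167814 on the minus strand for Chil3, each printed 5′ to 3′ along its gene.
Ctss: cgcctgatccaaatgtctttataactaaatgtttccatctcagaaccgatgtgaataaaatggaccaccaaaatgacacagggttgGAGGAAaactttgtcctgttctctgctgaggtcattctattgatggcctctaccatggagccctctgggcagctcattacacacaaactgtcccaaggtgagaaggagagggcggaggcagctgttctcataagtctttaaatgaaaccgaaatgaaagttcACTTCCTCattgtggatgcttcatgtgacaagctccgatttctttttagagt
Itgam: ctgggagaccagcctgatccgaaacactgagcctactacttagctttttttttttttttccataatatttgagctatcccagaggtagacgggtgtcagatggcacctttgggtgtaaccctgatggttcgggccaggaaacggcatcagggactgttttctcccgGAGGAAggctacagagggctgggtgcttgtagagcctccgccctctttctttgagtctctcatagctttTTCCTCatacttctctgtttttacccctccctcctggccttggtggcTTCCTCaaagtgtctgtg
Chil3: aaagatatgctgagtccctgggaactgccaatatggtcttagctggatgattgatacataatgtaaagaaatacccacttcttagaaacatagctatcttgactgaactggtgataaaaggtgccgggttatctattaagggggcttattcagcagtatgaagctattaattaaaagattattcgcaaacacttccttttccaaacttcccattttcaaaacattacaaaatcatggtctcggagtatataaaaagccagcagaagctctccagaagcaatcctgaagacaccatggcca
GAGGAA was found in 3 of the 5 promoters, against 28.3% of 32851 promoters of the same length. Ctss had 2 matches and Itgam had 3, Fcgr1 had 1, and Chil3 and Lyz2 had none. GAGGAAGT was found in 1 of the 5, that of Ctss, against 3.2% of all promoters. A match describes letters in the window and shows no binding. Other forms of the site were not searched, so a window without GAGGAA may still hold a site.

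The libraries held between 53750675 and 77675388 estimated reads. Kdm6b fell in Jmjd3 KO cells, at 15.9 and 16.5 CPM against 29.9 and 22.7 CPM in Tdt control cells (adjusted p = 0.0243). Kdm6a fell in Utx KO cells, at 7.68 and 7.38 CPM against 32.9 and 34.0 CPM in Tdt control cells (adjusted p = 1e-05). CPM are read counts scaled to the TMM-normalised library size. Of the lists of cell type markers, that of satellite cells had the highest sum in each library: its 12 genes, among them Pax7, summed to between 3927 and 4258 CPM. The lists differ in their genes and the levels of these, so the sums do not measure shares of cells. A list of 22 macrophage genes summed to between 62.7 and 96.9 CPM. A list of 14 lymphoid genes summed to at most 1.11 CPM, and 9 of the 14 had 3 reads or fewer in each library.

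Per length of transcript, Cd14 was the highest of the 10 genes in each group, and Lyz2 and Tyrobp followed it. In TPM, the deposited unit, which corrects for transcript length and sets all libraries to an equal total, Cd14 averaged 61.2 ± 9.19 in Jmjd3 KO, 41.0 ± 3.85 in Utx KO and 34.8 ± 3.35 in Tdt control cells (SD, n = 2 each). Lyz2 averaged 41.5 ± 2.70 TPM in Jmjd3 KO, 24.0 ± 4.46 in Utx KO and 33.8 ± 7.78 in Tdt control cells. The libraries of Cd14 and Lyz2 overlapped only in the Tdt control group, where the level of Lyz2 came close to that of Cd14. Tyrobp averaged 27.1 ± 3.65 TPM in Jmjd3 KO, 17.5 ± 1.23 in Utx KO and 17.1 ± 1.82 in Tdt control cells. Ctss came at rank 4 in each group. Itgam, C1qa and Chil3 lay below Ctss, and their order changed: Chil3 was at rank 7 in Utx KO cells, at 2.17 ± 0.17 TPM and with libraries that overlapped those of C1qa, and at rank 5 in Tdt control cells, at 5.34 ± 1.03 TPM and ahead of Itgam. Csf1r was at rank 8 in each group, at 2.70 ± 0.21 TPM in Jmjd3 KO, 1.71 ± 0.32 in Utx KO and 2.28 ± 0.26 in Tdt control cells, and its libraries overlapped those of C1qa in Jmjd3 KO and Tdt control cells. Adgre1 and Fcgr1 were lowest, and Fcgr1 averaged 1.06 ± 0.33 TPM in Jmjd3 KO, 0.548 ± 0.0511 in Utx KO and 0.943 ± 0.106 in Tdt control cells. Without the length correction the order differed, since Itgam has long transcripts: by CPM it was at rank 3 in each group.

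A gene was called when its p from the quasi-likelihood test of edgeR, adjusted over all 17084 genes by the method of Benjamini and Hochberg, was under 0.05. In Jmjd3 KO cells 7 markers had log2 fold changes above 0 relative to Tdt control cells and 3 had values below 0, none of the 3 called. Cd14 and Tyrobp rose, while Fcgr1 and Chil3 were lower in both Jmjd3 KO libraries than in both Tdt control libraries without passing the test. In all, 2 of the 10 genes were called higher, against 1.97% of all genes, and 0 were called lower, against 1.03% of all genes. Unadjusted, 4 had a p under 0.05, namely Cd14, Tyrobp, Itgam and Ctss, all higher, against 11.0% of all genes, and DESeq2 also called none lower. The libraries of the groups did not overlap for 5 genes that were higher in Jmjd3 KO cells, against 26.2% of all genes, and for 2 that were lower, against 25.5%. Fcgr1 and Adgre1 were above 0 with a correction for transcript length (0.07 and 0.02) and in the authors' deposited table (0.0078 and 0.0035). Chil3 stayed below 0 in both, at -0.26 and -0.08.

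Cd14 had 131.6 and 106.1 CPM in the Jmjd3 KO libraries, against 68.9 and 74.9 CPM in the Tdt control libraries. Both Jmjd3 KO libraries lay above both controls, and replicate 1 was the higher of the pair. The log2 fold change was 0.72 ± 0.11 (SE), a 1.65-fold rise (adjusted p = 0.0206). In bulk RNA, more cells of a type and more RNA of a gene per cell cannot be told apart. Tyrobp had 19.5 and 16.3 CPM in the Jmjd3 KO libraries, against 11.5 and 12.8 CPM in the Tdt control libraries, a log2 fold change of 0.56 ± 0.11 (adjusted p = 0.0460). Again the groups did not overlap and replicate 1 of Jmjd3 KO was the highest library. Itgam followed at 41.6 and 37.1 CPM in Jmjd3 KO cells, against 27.9 and 31.3 CPM in Tdt control cells. Its log2 fold change of 0.41 ± 0.09 missed the threshold (adjusted p = 0.0529). Ctss and Lyz2 differed less, at 0.28 ± 0.09 and 0.21 ± 0.15 on the log2 scale (adjusted p = 0.146 and 0.506), and for Lyz2 the libraries overlapped.

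The 5 genes of the narrower macrophage and monocyte lists lay between -0.29 and 0.17 in the same comparison. Chil3 had 9.40 and 10.6 CPM in the Jmjd3 KO libraries, against 10.8 and 13.7 CPM in the Tdt control libraries (log2 fold change -0.29 ± 0.13, adjusted p = 0.270). Fcgr1 had 3.20 and 3.50 CPM in Jmjd3 KO cells, against 3.67 and 4.07 CPM in Tdt control cells (-0.21 ± 0.14, adjusted p = 0.443). For both genes the groups were separate, with Jmjd3 KO below. Csf1r had 15.7 and 17.0 CPM in Jmjd3 KO cells, against 13.5 and 15.6 CPM in Tdt control cells, and its 0.17 ± 0.12 was not called (adjusted p = 0.497). Adgre1 and C1qa had overlapping libraries, with log2 fold changes of -0.16 ± 0.15 and 0.11 ± 0.14. The 10 log2 fold changes spanned 1.01, with a median of 0.19, where the median over all genes tested was -0.0047.

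**Figure D1:**
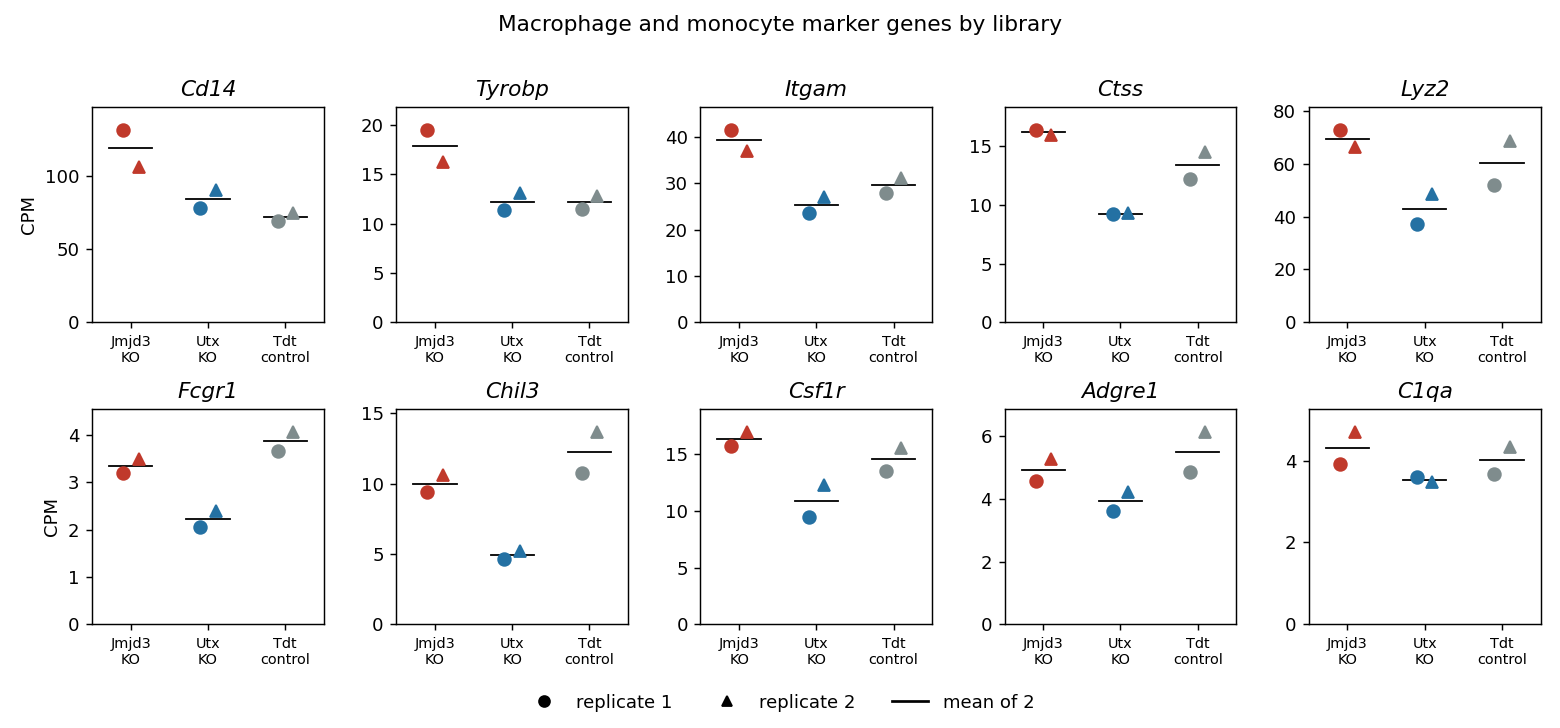
Level of each of the 10 marker genes in CPM (y axis, from 0) in Jmjd3 KO, Utx KO and Tdt control libraries, with replicate 1 as a circle, replicate 2 as a triangle and the mean of 2 as a line. The upper row holds the genes shared with other leukocytes, whose means are highest in Jmjd3 KO cells, and the lower row the macrophage and monocyte genes, of which Chil3, Fcgr1 and Adgre1 have their highest mean in Tdt control cells.

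In Utx KO cells Chil3, Ctss and Fcgr1 fell relative to Tdt control cells. Of the other 7, Cd14 and Tyrobp had log2 fold changes above 0 and 5 had values below 0, none of them called. Of the 10 genes, 3 were called lower, against 0.925% of all genes tested, and 0 were called higher, against 0.79%. At an unadjusted p under 0.05 there were 7, namely Chil3, Ctss, Fcgr1, Csf1r, Adgre1, Lyz2 and Itgam, all lower in Utx KO cells, against 8.54% of all genes. DESeq2 also called none higher. The libraries did not overlap for 8 genes that were lower in Utx KO cells, against 23.3% of all genes, and for 1 that was higher, Cd14, against 22.3%. Both knockouts were compared with the same 2 Tdt control libraries, so these counts are not independent of those above.

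Chil3 had 4.65 and 5.24 CPM in the Utx KO libraries, against 10.8 and 13.7 CPM in the Tdt control libraries. Both Utx KO libraries were under 6 CPM and both controls above 10 CPM. The log2 fold change was -1.30 ± 0.14, a 2.47-fold lower level in Utx KO cells (adjusted p = 0.0111). Ctss had 9.21 and 9.28 CPM in Utx KO cells, against 12.2 and 14.5 CPM in Tdt control cells, and its log2 fold change was -0.53 ± 0.09 (adjusted p = 0.0391). The 2 Utx KO libraries were nearly equal in Ctss, and the difference to the controls came with a wider spread among the controls. Fcgr1 had 2.06 and 2.40 CPM in Utx KO cells, against 3.67 and 4.07 CPM in Tdt control cells, from 111 to 279 estimated reads per library (-0.79 ± 0.14, adjusted p = 0.0430).

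Csf1r had 9.50 and 12.3 CPM in the Utx KO libraries, against 13.5 and 15.6 CPM in the Tdt control libraries, and Lyz2 37.1 and 48.7 CPM against 52.0 and 68.8 CPM. Neither was called, at -0.42 ± 0.13 (adjusted p = 0.166) and -0.49 ± 0.16 (adjusted p = 0.180), although the groups were separate. Adgre1 had 3.63 and 4.22 CPM in Utx KO cells, against 4.87 and 6.15 CPM in Tdt control cells (-0.49 ± 0.15, adjusted p = 0.175). C1qa was closest to the control among the macrophage genes, at 3.59 and 3.48 CPM in Utx KO cells, against 3.67 and 4.34 CPM in Tdt control cells. Cd14, at 78.2 and 90.6 CPM in Utx KO cells, lay above both controls (0.23 ± 0.11, adjusted p = 0.374), and Tyrobp, at 11.4 and 13.1 CPM, overlapped them (0.01 ± 0.11). The log2 fold changes spanned 1.53, with a median of -0.45, where the median over all genes tested was -0.0022.

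The direct comparison of Jmjd3 KO with Utx KO cells had the 10 markers on the same side. Each gene was higher in both Jmjd3 KO libraries than in both Utx KO libraries, which held for 28.6% of all genes. Of the 10, 8 were called higher, against 5.13% of all genes tested, and 0 lower, against 2.89%. DESeq2 called the same number, and at an unadjusted p under 0.05 there were also 8, against 13.7% of all genes. Chil3 differed most, at 9.40 and 10.6 CPM in Jmjd3 KO libraries, against 4.65 and 5.24 CPM in Utx KO libraries, 1.01 ± 0.14 on the log2 scale (adjusted p = 0.00731). Ctss had the smallest p, with 16.4 and 16.0 CPM in Jmjd3 KO cells, against 9.21 and 9.28 CPM in Utx KO cells (0.81 ± 0.09, adjusted p = 0.00385). The spread within each pair of Ctss libraries was a small part of the gap between the groups. Lyz2 differed by 0.70 ± 0.16 (adjusted p = 0.0373), Itgam by 0.64 ± 0.09 (adjusted p = 0.00811), Tyrobp by 0.55 ± 0.11 (adjusted p = 0.0287) and Cd14 by 0.49 ± 0.11 (adjusted p = 0.0413). Among the macrophage genes, Csf1r and Fcgr1 each differed by 0.58, with SE of 0.13 and 0.14 (adjusted p = 0.0341 and 0.0494). Adgre1 and C1qa were not called, at 0.33 ± 0.15 and 0.29 ± 0.14 (adjusted p = 0.227 and 0.252). The log2 fold changes spanned 0.73, with a median of 0.58, where the median over all genes tested was 0.0014. Markers of non-myeloid cells differed here too. The 8 genes of fibro-adipogenic cells summed to 456.8 and 449.4 CPM in Jmjd3 KO libraries, against 375.4 and 382.1 CPM in Utx KO libraries, and 3 of the 8 (Lum, Dcn and Cd34) were called higher, with a median log2 fold change of 0.23 over the list. The 8 endothelial genes summed to 45.7 and 57.2 CPM in Jmjd3 KO libraries, against 43.7 and 39.5 CPM in Utx KO libraries, and 0 were called, with a median of 0.32. For 5 of 8 genes on each list, both Jmjd3 KO libraries lay above both Utx KO libraries. Their part in the difference of the markers was not tested.

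**Figure D2:**
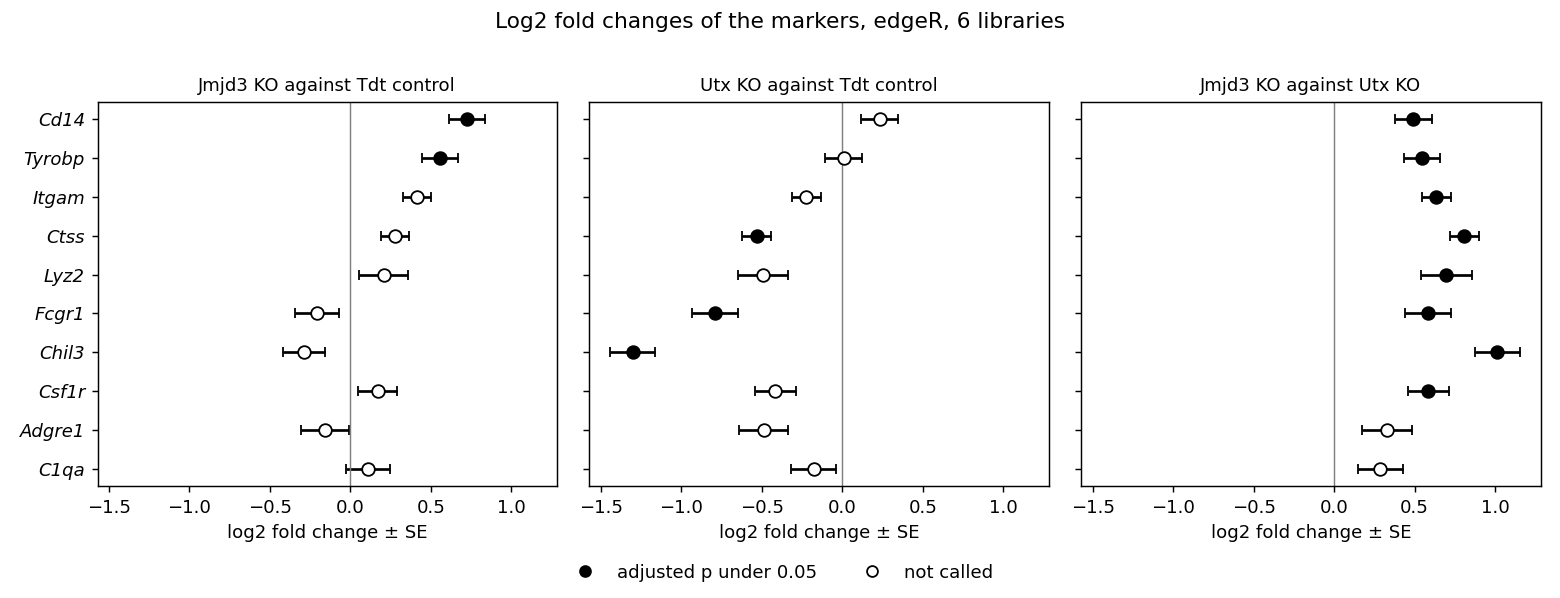
Log2 fold changes of the 10 marker genes (x axis, with SE as bars) in the 3 comparisons, from the fit over all 6 libraries, with filled points for genes called at an adjusted p under 0.05. The points spread to both sides of 0 in Jmjd3 KO against Tdt control, lie mostly below 0 in Utx KO against Tdt control and all lie above 0 in Jmjd3 KO against Utx KO.

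With a library left out there were fewer calls in most fits, for the markers as over all genes, while the log2 fold changes of the called markers kept their sign. Between Jmjd3 KO and Utx KO, Ctss was called with each of the 6 libraries left out, and Chil3 in 5 of 6. Only 1 of the 10 genes, Ctss, was called without Utx KO replicate 1, and 2 without Jmjd3 KO replicate 1, while 5 were called without Jmjd3 KO replicate 2 and 5 without Utx KO replicate 2. The share of all genes called in either direction was 8.02% with all libraries, 1.63% without Utx KO replicate 1, 1.93% without Jmjd3 KO replicate 1, 1.88% without Jmjd3 KO replicate 2 and 3.79% without Utx KO replicate 2. Without Utx KO replicate 1 the log2 fold changes of Chil3 and Itgam were 0.93 and 0.55. Against Tdt control, the call of Cd14 in Jmjd3 KO cells was lost without Jmjd3 KO replicate 1 (adjusted p = 0.113), Tdt control replicate 1 (0.105) or Tdt control replicate 2 (0.0673), and that of Tyrobp was lost whichever of the 6 libraries was left out (0.0530 to 0.242), with log2 fold changes from 0.42 to 0.68. All genes called there numbered 513 with all libraries and 113 to 434 with 1 left out. In Utx KO cells Ctss and Fcgr1 lost their calls whichever library was left out, with log2 fold changes from -0.65 to -0.40 for Ctss and from -0.90 to -0.69 for Fcgr1, and the calls over all genes fell to between 16 and 96, against 293 with all libraries. There Chil3 lost its call only without Utx KO replicate 1 (adjusted p = 0.0929). The authors' deposited table called 3 of the markers higher in Jmjd3 KO cells, namely Cd14 (log2 fold change 0.68), Tyrobp (0.50) and Itgam (0.42), against 3.69% of the genes with an adjusted p in that table, and 0 lower, against 2.41%. In Utx KO cells the authors' deposited table called Chil3 (-1.24) and Ctss (-0.47) lower, 2 genes, against 2.23% of genes, and 0 higher, against 1.98%. DESeq2 on the summed reads called 3 of the markers higher in Jmjd3 KO than in Tdt control cells (4.5% of all genes were higher and 3.01% lower), 3 lower in Utx KO than in Tdt control cells (2.79% lower and 2.3% higher) and 8 higher in Jmjd3 KO than in Utx KO cells (7.5% higher and 5.5% lower).

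The replicates of each group also differed from each other. Cd14, Tyrobp, Itgam, Lyz2 and Ctss, the 5 shared with other leukocytes, were higher in Jmjd3 KO replicate 1, by up to 1.24 times for Cd14. Fcgr1, Chil3, Csf1r, Adgre1 and C1qa were higher in replicate 2, by up to 1.20 times for C1qa. In the Utx KO pair, 9 of the 10 were higher in replicate 2, with C1qa the exception, and in the Tdt control pair all 10 were, by 1.09 to 1.32 times. Over all genes, 47.9% were higher in replicate 2 of Jmjd3 KO, 50.8% in replicate 2 of Utx KO and 49.8% in replicate 2 of Tdt control. On the wider lists, Jmjd3 KO replicate 1 was the higher of its pair for 19 of 20 shared myeloid genes, 14 of 15 neutrophil genes, 8 of 12 monocyte genes, 6 of 8 dendritic cell genes, 8 of 12 satellite cell genes, 5 of 8 fibro-adipogenic genes, 2 of 8 endothelial genes and 4 of 18 macrophage genes. Tdt control replicate 2 was the higher of its pair for all 8 fibro-adipogenic genes, 7 of 8 endothelial genes and 10 of 12 satellite cell genes, so that its lead was not limited to the markers.

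**Figure D3:**
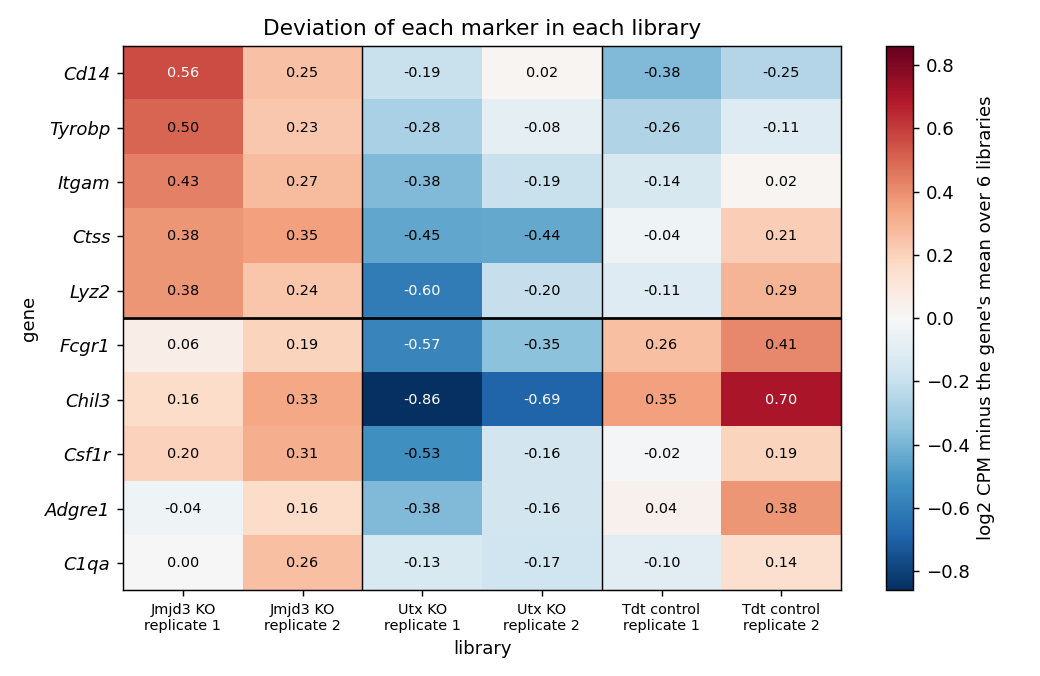
Log2 CPM of each marker gene (rows) in each library (columns) minus the mean of that gene over the 6 libraries, in red above and blue below the mean. Above the black line stand the genes shared with other leukocytes, deepest red in Jmjd3 KO replicate 1, and below it the macrophage and monocyte genes, of which Chil3 runs from -0.86 in Utx KO replicate 1 to 0.70 in Tdt control replicate 2.

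The ratio between 2 markers in the same library shows directly whether they kept step, since a common factor cancels. Among the 45 pairs of the 10 genes, the highest ratio over the 6 libraries exceeded the lowest by 1.18 to 3.16 times, with a median of 1.63, and 13 pairs stayed under 1.5 times. The pairs named here were chosen after their values were seen. Itgam and Tyrobp kept the closest step, at 1.18 times, and Cd14 and Tyrobp were also at 1.18 times. Lyz2 over Csf1r, a pair across the lists, was 4.65 and 3.90 in Jmjd3 KO, 3.90 and 3.97 in Utx KO and 3.84 and 4.41 in Tdt control libraries, a range of 1.21 times. Cd14 over Fcgr1 was 41.1 and 30.3 in Jmjd3 KO and 37.9 and 37.8 in Utx KO libraries, against 18.8 and 18.4 in Tdt control libraries. Both knockouts thus held more Cd14 reads per Fcgr1 read than the control, in each of the 4 libraries. Chil3 over Csf1r was 0.598 and 0.624 in Jmjd3 KO and 0.489 and 0.427 in Utx KO libraries, against 0.795 and 0.879 in Tdt control libraries. The widest pair was Cd14 and Chil3, at 3.16 times.

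Cd14 kept closer step with the neutrophil gene Csf3r than with the macrophage genes. No other neutrophil gene was compared in this way. Csf3r, chosen for this after its values were seen, encodes the receptor for G-CSF, the growth factor of neutrophils. It had 24.6 and 19.7 CPM in Jmjd3 KO and 16.2 and 16.6 CPM in Utx KO libraries, against 13.5 and 14.1 CPM in Tdt control libraries, and it rose in Jmjd3 KO cells (log2 fold change 0.68, adjusted p = 0.0180). The ratio of Cd14 to Csf3r was 5.36 and 5.40 in Jmjd3 KO, 4.82 and 5.46 in Utx KO and 5.09 and 5.31 in Tdt control libraries, so that it varied by 1.13 times. The ratio of Cd14 to Csf1r varied by 1.74 times over the same libraries, and that of Cd14 to Tyrobp by 1.18 times. Tyrobp too varied less against Csf3r (1.30 times) than against Csf1r (1.51 times). The order was reversed for the other 7 genes: Lyz2 varied by 2.13 times against Csf3r and 1.21 times against Csf1r, Itgam by 1.52 and 1.32 times, Ctss by 1.84 and 1.38 times, Fcgr1 by 2.26 and 1.39 times, Adgre1 by 2.33 and 1.35 times, C1qa by 1.92 and 1.51 times and Chil3 by 3.38 and 2.06 times. The range that noise alone would give such ratios was not estimated. Small differences, as for Tyrobp and Itgam, therefore do not show which gene a marker follows.

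**Figure D4:**
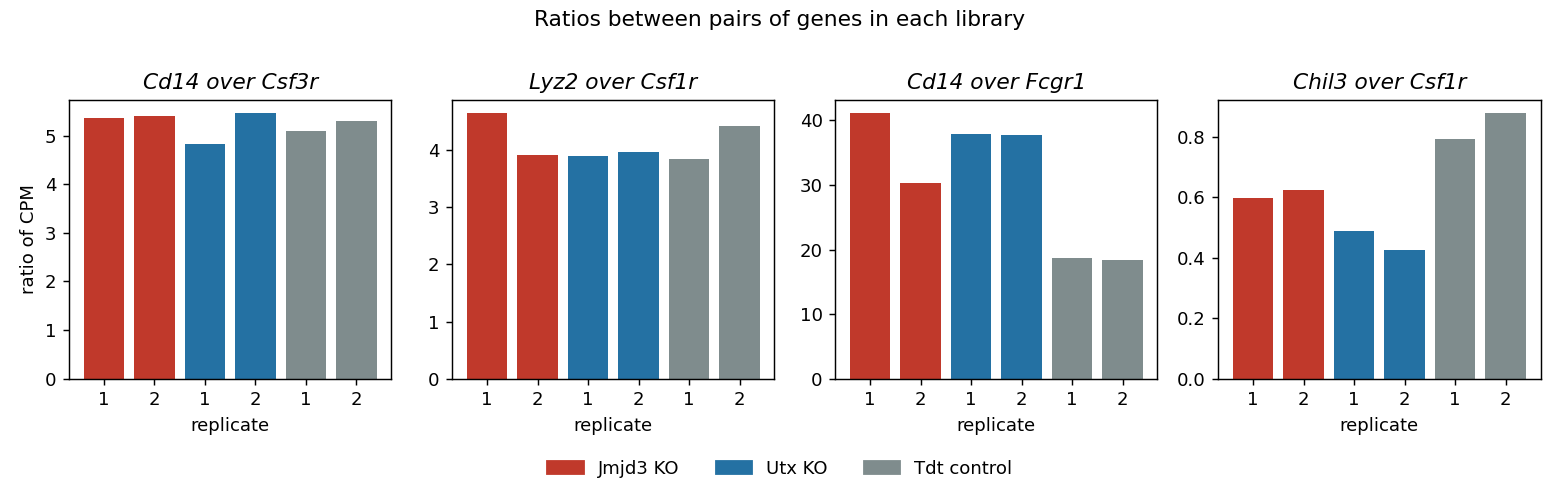
Ratio of CPM between 2 genes (y axis, from 0) in each of the 6 libraries, for 4 pairs chosen after their values were seen. Cd14 over Csf3r and Lyz2 over Csf1r stay nearly level, while Cd14 over Fcgr1 is higher in the Jmjd3 KO and Utx KO libraries than in the Tdt control libraries and Chil3 over Csf1r is lower.

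The wider marker lists moved beside the 10 genes as follows, and their part in the results above was not tested. On these and the pathway lists, counts of genes that rose, fell, were higher or were lower are counts of called genes. Of all genes tested, 1.97% were called higher and 1.03% lower in Jmjd3 KO against Tdt control cells. The shares were 0.79% and 0.925% in Utx KO against Tdt control cells. Between Jmjd3 KO and Utx KO cells they were 5.13% and 2.89%, in the same order. A list of 22 macrophage genes, which includes Csf1r, Adgre1, Fcgr1 and C1qa, summed to 83.3 and 96.9 CPM in Jmjd3 KO and 62.7 and 71.2 CPM in Utx KO libraries, against 78.9 and 96.1 CPM in Tdt control libraries. Of its 18 genes tested, 0 were called in Jmjd3 KO against Tdt control cells, Fcgr1 alone fell in Utx KO cells, and 3 (Cd68, Csf1r and Fcgr1) were higher in Jmjd3 KO than in Utx KO cells. The median log2 fold changes were -0.01, -0.39 and 0.37 in these comparisons. Of the 12 monocyte genes, Nr4a1, a nuclear receptor of patrolling monocytes that many activated cells also express, rose in Jmjd3 KO cells (0.32, adjusted p = 0.0392), and Chil3 fell in Utx KO cells. Ccr2, the receptor that draws monocytes from blood, had 3.22 and 3.13 CPM in Utx KO libraries, against 4.88 and 7.53 CPM in Tdt control libraries (-0.96, adjusted p = 0.0715). Chil3, Ly6c2 and F10 were the 3 monocyte genes called higher in Jmjd3 KO than in Utx KO cells.

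The 20 shared myeloid genes, which include Cd14, Lyz2, Itgam, Ctss and Tyrobp, summed to 572.5 and 485.0 CPM in Jmjd3 KO and 348.9 and 380.9 CPM in Utx KO libraries, against 354.9 and 406.6 CPM in Tdt control libraries. Of the 20, 7 were called higher and 0 lower in Jmjd3 KO cells relative to Tdt control cells, and all 20 had log2 fold changes above 0. Among the 7 were Lcp1, the actin-bundling protein plastin of leukocytes (0.55, adjusted p = 0.0197), and Cd53, a tetraspanin (0.59, adjusted p = 0.0356). In Utx KO cells 1 of 20, Ctss, was called lower, while 15 had log2 fold changes below 0 and 5 above 0. Between Jmjd3 KO and Utx KO cells 15 of 20 were called higher, among them Itgb2 and Laptm5, and all 20 had log2 fold changes above 0. The 18 neutrophil genes summed to 333.4 and 259.8 CPM in Jmjd3 KO and 218.4 and 256.9 CPM in Utx KO libraries, against 167.9 and 184.9 CPM in Tdt control libraries. Of the 15 neutrophil genes tested, 5 rose in Jmjd3 KO cells (Hdc, Mxd1, Csf3r, S100a9 and Il1r2), 1 rose in Utx KO cells (Hdc, the histidine decarboxylase that makes histamine) and 2 (Mxd1 and Csf3r) were higher in Jmjd3 KO than in Utx KO cells. The list was not uniform. Against Tdt control, 2 of the 15 had log2 fold changes below 0 in Jmjd3 KO cells, the lowest at -2.38. In Utx KO cells 4 of the 15 did, the lowest at -2.89, and 0 were called lower in either knockout. S100a9, a calcium-binding protein abundant in neutrophils and in monocytes, had 70.3 and 54.3 CPM in Jmjd3 KO and 44.3 and 58.0 CPM in Utx KO libraries, against 31.0 and 33.6 CPM in Tdt control libraries. Ly6g, a defining neutrophil marker, had at most 0.093 CPM in a library and was not tested. The 11 dendritic cell genes summed to 51.8 and 45.1 CPM in Jmjd3 KO and 33.7 and 32.2 CPM in Utx KO libraries, against 40.7 and 44.5 CPM in Tdt control libraries, and Cd74, the invariant chain that cathepsin S trims, fell in Utx KO cells (-0.72, adjusted p = 0.0213). Cd74, Itgax and H2-Ab1 were the 3 dendritic cell genes called higher in Jmjd3 KO than in Utx KO cells.

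**Figure D5:**
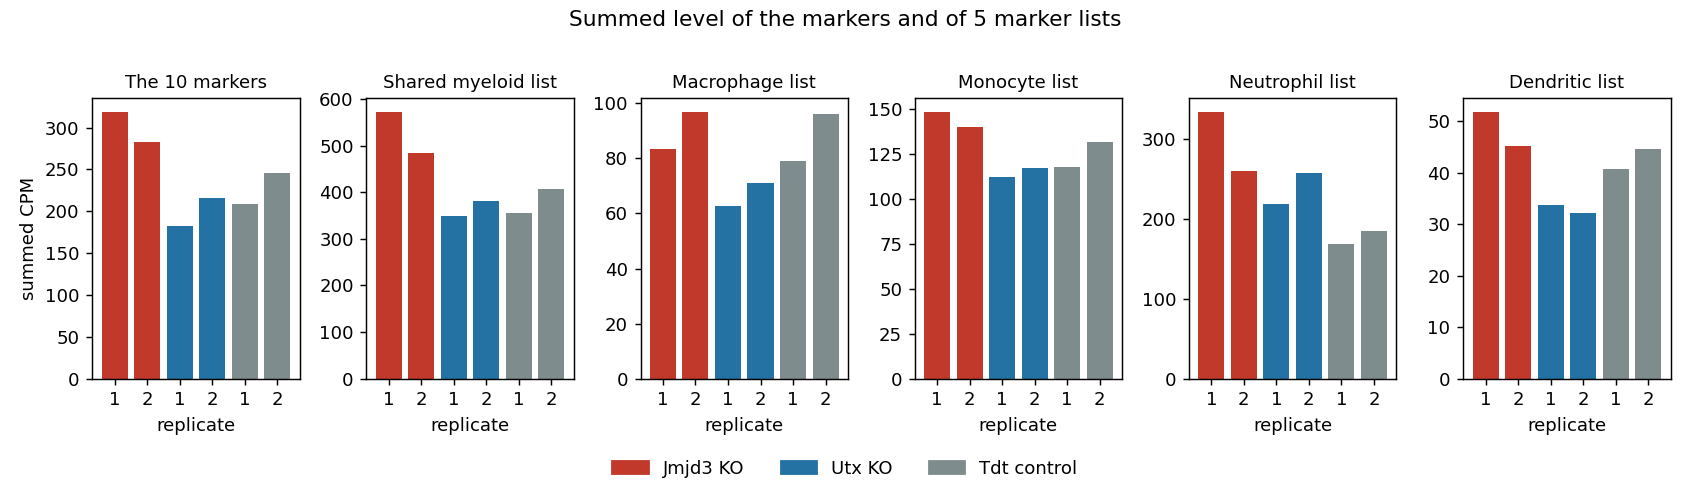
Summed CPM (y axis, from 0) of the 10 markers and of 5 lists of marker genes in each of the 6 libraries, with replicates side by side. The neutrophil list is lowest in the Tdt control libraries, whereas the macrophage list is lowest in the Utx KO libraries.

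Partners of the markers were followed on lists of their pathways, beside which the same shares of all genes called apply. Of 20 genes of ITAM and Fc receptor signalling, 17 had log2 fold changes above 0 in Jmjd3 KO cells relative to Tdt control cells. Of these, 3 were called higher: Tyrobp itself, Syk, the kinase that binds phosphorylated ITAMs (0.62, adjusted p = 0.0199), and Clec7a, the beta-glucan receptor dectin-1 (0.87, adjusted p = 0.0249). In Utx KO cells 1 of the 20, Fcgr1, was called lower, and 18 of the 20 had log2 fold changes below 0. Between Jmjd3 KO and Utx KO cells all 20 had log2 fold changes above 0 and 10 were called higher. The 10 were led by Trem1, a receptor that signals through DAP12, with 27.2 and 22.0 CPM in Jmjd3 KO libraries, against 15.3 and 15.3 CPM in Utx KO libraries (0.69, adjusted p = 0.00820). The ITAM adaptor Fcer1g was also among the 10.

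Of 15 genes of the CSF1 receptor axis and other myeloid growth and lineage factors, 4 rose in Jmjd3 KO cells. Csf2, which encodes the growth factor GM-CSF, had 5.93 and 5.42 CPM in Jmjd3 KO libraries, against 1.71 and 1.17 CPM in Tdt control libraries (1.97, adjusted p = 0.00340), and its receptor chain Csf2rb had 16.9 and 15.4 CPM against 9.63 and 9.82 CPM (0.73, adjusted p = 0.00384). The monocyte chemokine Ccl2 had 30.5 and 30.9 CPM in Jmjd3 KO libraries, against 18.6 and 19.9 CPM in Tdt control libraries (0.67, adjusted p = 0.00446). The transcription factor gene Cebpb rose too (0.48, adjusted p = 0.0260). In Utx KO cells 1 of the 15 fell, the chemokine gene Ccl7, at 11.2 and 11.7 CPM in Utx KO libraries, against 14.8 and 17.9 CPM in Tdt control libraries (-0.52, adjusted p = 0.0463). Between Jmjd3 KO and Utx KO cells 7 were called higher, among them Spi1, Irf8 and Csf1r, and 1, Cx3cl1, was called lower (-0.35, adjusted p = 0.0389). The ligand Csf1, named after its values were seen, had 670.9 and 674.3 CPM in Jmjd3 KO and 686.1 and 712.7 CPM in Utx KO libraries, against 846.2 and 748.0 CPM in Tdt control libraries, and was called in neither knockout (adjusted p = 0.0721 and 0.176).

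On the list of 19 genes of lipopolysaccharide sensing, Cd14 and Irak2, a kinase downstream of Toll-like receptors (0.63, adjusted p = 0.0217), rose in Jmjd3 KO cells, and 0 were called in Utx KO cells, with Ly86 the smallest p. Irak2, Ly86, Cd14 and Tlr2, 4 of the 19, were higher in Jmjd3 KO than in Utx KO cells. Tlr4 itself, named after its values were seen, had 9.89 and 8.38 CPM in Jmjd3 KO and 9.84 and 9.72 CPM in Utx KO libraries, against 7.26 and 8.23 CPM in Tdt control libraries, and was called in neither. Of 17 lysosomal genes tested, Grn, the progranulin gene, rose in Jmjd3 KO cells (0.28, adjusted p = 0.0323) and Ctss fell in Utx KO cells, while 5 (Ctss, Ctsc, Grn, Lgmn and Ctsb) were higher in Jmjd3 KO than in Utx KO cells. Of 8 leukocyte integrin genes tested, Itgb2, the partner chain of Itgam, rose in Jmjd3 KO cells, at 27.2 and 23.5 CPM against 17.2 and 19.8 CPM in Tdt control libraries (0.46, adjusted p = 0.0468), and 4 (Itgam, Itgb2, Itgal and Itgax) were higher in Jmjd3 KO than in Utx KO cells. Of 12 complement genes, C3 rose in Jmjd3 KO cells (0.59, adjusted p = 0.0200) and 0 were called in Utx KO cells. C3 and Cfb, the factor B gene, were higher in Jmjd3 KO than in Utx KO cells (0.64 and 1.16, adjusted p = 0.00922 and 0.0293), and C4b, a gene of complement component C4, was lower (-0.96, adjusted p = 0.0108). C4b had 4.04 and 4.89 CPM in Jmjd3 KO libraries, against 9.58 and 7.75 CPM in Utx KO libraries. The chains C1qb and C1qc, named after their values were seen, were called in neither knockout, as was C1qa: C1qb had 6.00 and 7.22 CPM in Jmjd3 KO and 4.58 and 5.03 CPM in Utx KO libraries, against 5.80 and 6.95 CPM in Tdt control libraries. Of 9 chitinase-like and alternative activation genes tested, Chil3 fell in Utx KO cells, and Chil3, Il4ra and Arg1 were higher in Jmjd3 KO than in Utx KO cells. Of 7 antimicrobial and lysozyme genes tested, Slpi, an inhibitor of neutrophil proteases, rose in Jmjd3 KO cells (0.96, adjusted p = 0.0117), and Slpi and Lyz2 were higher in Jmjd3 KO than in Utx KO cells.

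The deposited estimates also show which transcripts the sums rest on. Lyz2, Chil3 and C1qa had reads on 1 transcript each. For Cd14, Cd14-202, a transcript with a retained intron, took 5.06% to 6.78% of the TPM of the gene in the 6 libraries. For Itgam, reads were split mainly between 2 coding transcripts, and Itgam-201 took 45.3% and 42.4% of its TPM in Jmjd3 KO and 24.1% and 28.1% in Utx KO libraries, against 33.1% and 17.1% in Tdt control libraries. For Fcgr1, the short transcript Fcgr1-202, annotated for nonsense-mediated decay, took 36.3% of the TPM in Jmjd3 KO replicate 2 and 0% in the other 5 libraries. With transcript length corrected for, Fcgr1 was no longer lower in Jmjd3 KO than in Tdt control cells (log2 fold change 0.07, adjusted p = 0.916), and the count called between Jmjd3 KO and Utx KO cells was 3 of 10, namely Itgam, Ctss and Chil3. Of all genes, 4.64% were then called in either direction, against 8.02% without the correction. The log2 fold changes of the 5 genes that lost their call were 0.48 for Cd14, 0.69 for Lyz2, 0.53 for Tyrobp, 0.56 for Csf1r and 0.84 for Fcgr1.

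The 8 genes whose level followed the mean standardised profile of the 10 markers most closely over the 6 libraries, among 11652 genes, were Rnf157, Arhgap25, Plekhb1, Ccdc130, Lgmn, Etl4, Cybb and Tor4a, with Pearson's r from 0.9997 to 0.990. These correlations describe 6 libraries of 3 groups and carry no test. Cybb, the catalytic chain of the phagocyte oxidase, had 6.23 and 6.09 CPM in Jmjd3 KO and 2.57 and 3.20 CPM in Utx KO libraries, against 4.21 and 6.13 CPM in Tdt control libraries. Lgmn, the lysosomal protease legumain, had 60.9 and 61.5 CPM in Jmjd3 KO and 45.1 and 48.3 CPM in Utx KO libraries, against 50.9 and 58.1 CPM in Tdt control libraries. Both were higher in Jmjd3 KO than in Utx KO cells (1.09, adjusted p = 0.0178, and 0.39, adjusted p = 0.0198) and were called in neither knockout against Tdt control.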

How the data were processed

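RNA of 6 libraries, 2 for each of 3 groups, was analysed. Salmon 1.1.0, cutadapt 2.6 and DESeq2 1.28.1 are listed, with no role, in the submitters' processing notes, as are the builds mm10 and GRCm38. Per the file headers, the deposited quantification files give TPM and estimated counts per transcript, beside the length of each transcript. Their comparison tables hold log2 fold changes with standard errors (a score column in the units of the fold change), p-values with adjusted p-values, and a base mean (a signal averaged over libraries), all deposited by the authors. How those fold changes were shrunken, if at all, is not stated.

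Transcripts were assigned to genes with GENCODE M21 (GRCm38), where 139864 of 140748 matched, and 0.151% to 0.175% of the reads of a library were left out. Estimated counts were summed per gene and rounded. No source used here says whether counting used strand. The model was fitted in edgeR 4.0.16 under R 4.3.3, on all 6 libraries together, with TMM factors, filterByExpr, a genotype term and the quasi-likelihood test, with Benjamini-Hochberg adjustment over 17084 genes. DESeq2 1.42.0 was an alternative. The steps were also run on simulated counts with the same spread set for all genes, which does not show how calls behave with the real spread. Marker lists were written from general knowledge. The 10 markers and all lists were chosen with earlier results of these data known. From each list up to 4 genes with the smallest p in a comparison were named; other genes named from the lists, such as Ly6g and further called genes, were chosen after their values were seen. A gene that this rule names is not reported here. PU.1 motif letters were searched on both strands of RefSeq promoters (GRCm38.p6). Depth ran from 111 estimated reads for Fcgr1 to 8639 for Cd14 in a library.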

Additional observations from a re-analysis of the deposited data

Results flagged for a closer look

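For 8 of the 10 markers the level differed between the knockouts, by the direct test of Jmjd3 KO against Utx KO cells. With transcript length offsets the number was 3. Of all genes tested, 5.13% were called higher in Jmjd3 KO cells there. Both Jmjd3 KO libraries lay above both Utx KO libraries for 28.6% of all genes. The log2 fold changes were 0.49 for Cd14, 0.70 for Lyz2, 0.64 for Itgam, 0.81 for Ctss, 0.58 for Fcgr1, 1.01 for Chil3, 0.55 for Tyrobp and 0.58 for Csf1r, each with both Jmjd3 KO libraries above both Utx KO libraries and an adjusted p from 0.00385 to 0.0494 (edgeR). Whether the number of myeloid cells in the sorted samples differed was not tested.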

How the results depend on the processing

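Between Jmjd3 KO and Utx KO cells none of the member values changed sign under the alternatives run. The count of markers called there was 8, and it was 3 with transcript length offsets and 1 to 6 with 1 library left out. For Jmjd3 KO against Tdt control the count was 2, and it was 5 with no filter on low counts, 1 with transcript length offsets, 1 with the replicate block and 0 to 1 with 1 library left out. For Utx KO against Tdt control it was 3, and it was 7 with no filter, 1 with transcript length offsets, 1 with only the 4 libraries compared, 1 with the replicate block and 0 to 1 with 1 library left out. With the replicate block Jmjd3 KO against Utx KO gave 6. The differences between replicates 1 and 2 had correlations of -0.011, -0.008 and -0.053 between groups across genes, so no shift shared by most genes was seen. This check cannot decide whether same-numbered libraries share an animal or day, and the labels do not say. Over all genes, Jmjd3 KO against Tdt control gave 513 calls, 1084 with DESeq2, 1872 unfiltered, 331 with length offsets, 322 with the block and 113 to 434 with a library left out. Utx KO against Tdt control gave 293, and 701, 1399, 131, 133 and 16 to 96 in that order, with 119 from only its 4 libraries. Jmjd3 KO against Utx KO gave 1370, 2856 unfiltered, 792 with length offsets and 291 to 1387 with a library left out. The sign of small values turned: with transcript length offsets, Fcgr1 was 0.0676 and Adgre1 0.0235 in Jmjd3 KO against Tdt control. Leaving out each library in turn, Adgre1 ran from -0.319 (Tdt control replicate 1 left out) to 0.0262 (Tdt control replicate 2) there, and C1qa from -0.0244 (Jmjd3 KO replicate 2) to 0.2415 (Tdt control replicate 2). In Utx KO against Tdt control, Tyrobp ran from -0.0976 (Utx KO replicate 2) to 0.1063 (Utx KO replicate 1). The cause of these moves was not tested. The filter at 5 CPM left Fcgr1 and C1qa untested. With 2 libraries a group, a library left out leaves a lone sample, which is assumed to vary like the others.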
